A study of Mus musculus with 12 samples.

Results

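The genes described here are 41 named genes of glucose breakdown and of the response to low oxygen, taken from a fixed list of symbols and found among 19212 genes measured in 12 mouse lung cancer libraries. They comprise 4 genes of glucose entry and phosphorylation, 12 enzymes of the glycolytic chain, 4 genes of lactate production and transport, 3 regulators of glycolytic flux, 4 genes of oxygen sensing and 14 targets of the hypoxia response. All 41 symbols were found. The rule that lists them uses no measured level, but the list was chosen with earlier results of these data known.

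Glycolysis splits glucose into pyruvate in the cytosol, and lactate dehydrogenase then turns pyruvate into lactate, which leaves the cell through monocarboxylate transporters. Oxygen acts on the pathway through the hypoxia-inducible factors: prolyl hydroxylases use oxygen to mark the alpha subunits for destruction, and when oxygen is short the alpha subunits persist, pair with ARNT and bind short DNA motifs near their target genes. Tumours are known for high glycolysis even where oxygen is present. In healthy lung, endothelial and alveolar type 2 cells are known for Epas1, which encodes HIF-2alpha.

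Cells of Lewis lung carcinoma (LLC), a mouse tumour line that grows when transplanted, were the starting material of all 4 groups, with 3 libraries each. In the first experiment the cells received a lentivirus before implantation in the lungs of mice, either a control virus (NC) or one against Otub1 (OTUB1_KD), whose product strips ubiquitin off other proteins. In the second experiment, mice with LLC tumours were given saline (Blank) or SFD@M, a preparation whose composition the labels do not state. The labels name no lentivirus for the second experiment and no strain, age, dose or time for either; they do not say whether the codes sh1A, sh2A and sh3A of the OTUB1_KD libraries are separate hairpins, and the codes of the Blank libraries start with KD although their treatment is saline. No label states that libraries of 1 group came from separate animals, so the p-values below cover a spread between samples that may be technical.

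Libraries held 16062806 to 18028828 counts each. Otub1 stood at 79.3, 76.6 and 72.8 CPM (read counts scaled by library total and by TMM factors over the 12 libraries) in NC against 57.7, 46.3 and 71.8 in OTUB1_KD (log2 fold change -0.36 ± 0.18 SE, adjusted p = 0.112), and at 73.8 to 77.9 in Blank against 45.0 to 47.2 in SFD@M (-0.71 ± 0.05, adjusted p = 5.80e-06). NC and Blank held little RNA of leukocytes and lung epithelium: 11 leukocyte markers summed to 1.45 to 4.92 CPM there and to 1235 to 1853 in the other groups, with Ptprc at 0 in 4 of the 6 control libraries, and 10 alveolar markers summed to 65.0 to 83.1 against 10680 to 26960. Summed endothelial markers (10 genes) stood at 39.4 to 65.7 CPM in the controls against 1255 to 4865, and 7 airway markers at 3.80 to 5.31 against 12270 to 37090. The 10 heart and skeletal muscle markers summed to 3.11 to 3.71 CPM in NC and 0.696 to 0.995 in Blank. They summed to 78.5 to 503 CPM in OTUB1_KD and 255.5 to 517 in SFD@M. The sum of the 10 fibroblast and smooth muscle markers was not low in the controls, at 2250 to 2353 CPM in NC and 2715 to 2784 in Blank. In OTUB1_KD it stood at 3816 to 5281 CPM and in SFD@M at 1898 to 2750. Col3a1 alone gave 1940 to 2501 CPM of the control sums. Col1a1, Col1a2, Dcn, Acta2, Myh11, Cnn1 and Tagln were each far lower in NC than in OTUB1_KD and in Blank than in SFD@M. As group means, Col1a2 stood at 13.1 CPM in NC, 1015 in OTUB1_KD, 4.4 in Blank and 412 in SFD@M. Pdgfra and Pdgfrb differed less, and the mean of Col3a1 was not lower in the controls. The study's design calls the samples tumour tissue; from these values tissue and cultured cells cannot be told apart for NC and Blank, and every fold against them below is read with that limit. Dividing-cell markers (10 genes) ran the other way, from 3465 to 3584 in the controls to 239.5 to 1101 in OTUB1_KD and 32.6 to 119.6 in SFD@M. The 4 Y-linked genes summed to 355 to 378 CPM in the controls, to 125, 0.597 and 24.6 in OTUB1_KD and to at most 1.60 in SFD@M. In bulk RNA a lower level through fewer cells of a type cannot be told apart from less RNA per cell, and the part of these marker differences in the results below was not tested.

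**Figure D1:**
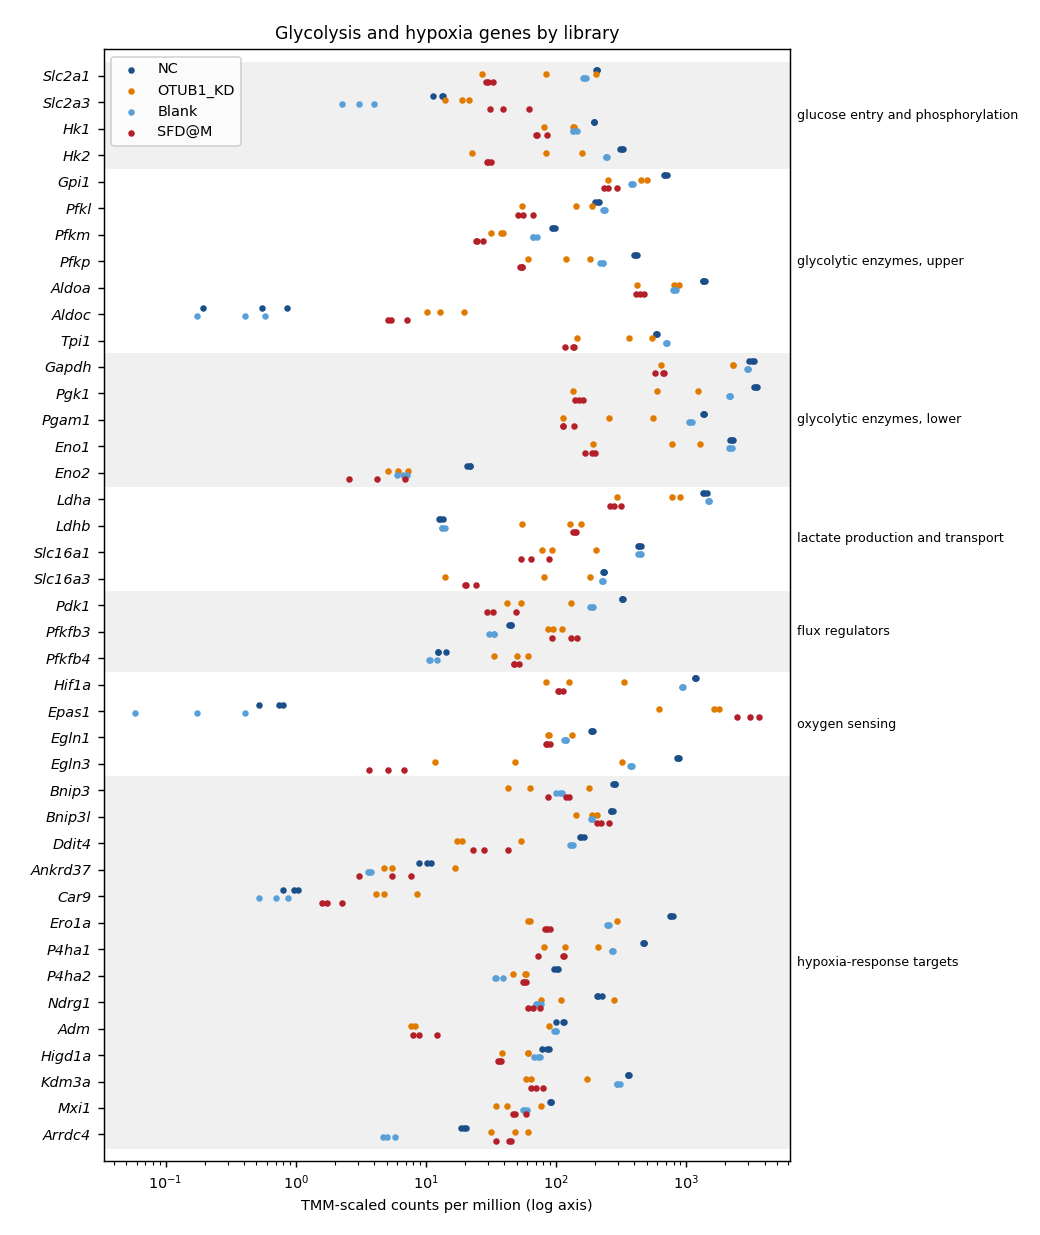
Levels of the 41 genes in every library, in TMM-scaled CPM on a log axis, with 1 point per library, coloured by group, and the genes ordered by role. For most genes the 3 points of NC lie close to each other, as do the 3 of Blank, while the OTUB1_KD points spread widely, and Epas1, Ldhb and Aldoc lie to the right in OTUB1_KD and SFD@M.

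Most of these genes were lower in OTUB1_KD than in NC and lower in SFD@M than in Blank. A gene is called higher or lower below when its adjusted p from edgeR's quasi-likelihood test over all genes is below 0.05. In OTUB1_KD against NC, 23 of the 41 genes were lower and 7 higher, beside 25.8% of all 14785 tested genes lower and 39.9% higher (65.7% in either direction). In SFD@M against Blank, 26 were lower and 10 higher, beside 38.7% and 49.5% of all 14824 tested genes (88.1% in either direction). The median log2 fold change over the 41 genes was -0.94 and -1.42, while that of all tested genes was 0.16 and 0.23. On log2(TPM + 1) values these medians of all genes were -0.02 and -0.03, and those of the 41 genes -1.25 and -1.62. The lower calls coincided for 18 genes (43.9%) and the higher calls for 7 (17.1%; Aldoc, Ldhb, Pfkfb3, Pfkfb4, Epas1, Car9 and Arrdc4), beside 23.5% and 37.7% of the 14504 genes tested in both comparisons, which share no library. Bnip3l and P4ha2 were lower in the first comparison and higher in the second, as were 75 of those 14504 genes (0.517%).

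The calls of the first comparison rest on libraries that vary widely. Its 7 higher calls and 12 of its 23 lower calls passed the test with any single library left out, and 11 lower calls (Hk1, Hk2, Gpi1, Aldoa, Pgk1, Pgam1, Ldha, Bnip3, Bnip3l, Higd1a and Mxi1) did not, with adjusted p up to 0.129. The number lower was 14 without any 1 NC library, 31 without OTUB1_KD replicate 1, 23 without replicate 2 and 16 without replicate 3. In the second comparison all 26 lower calls and 9 of the 10 higher calls passed with any single library left out; Bnip3l did not (adjusted p = 0.0578 without Blank replicate 3).

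**Figure D2:**
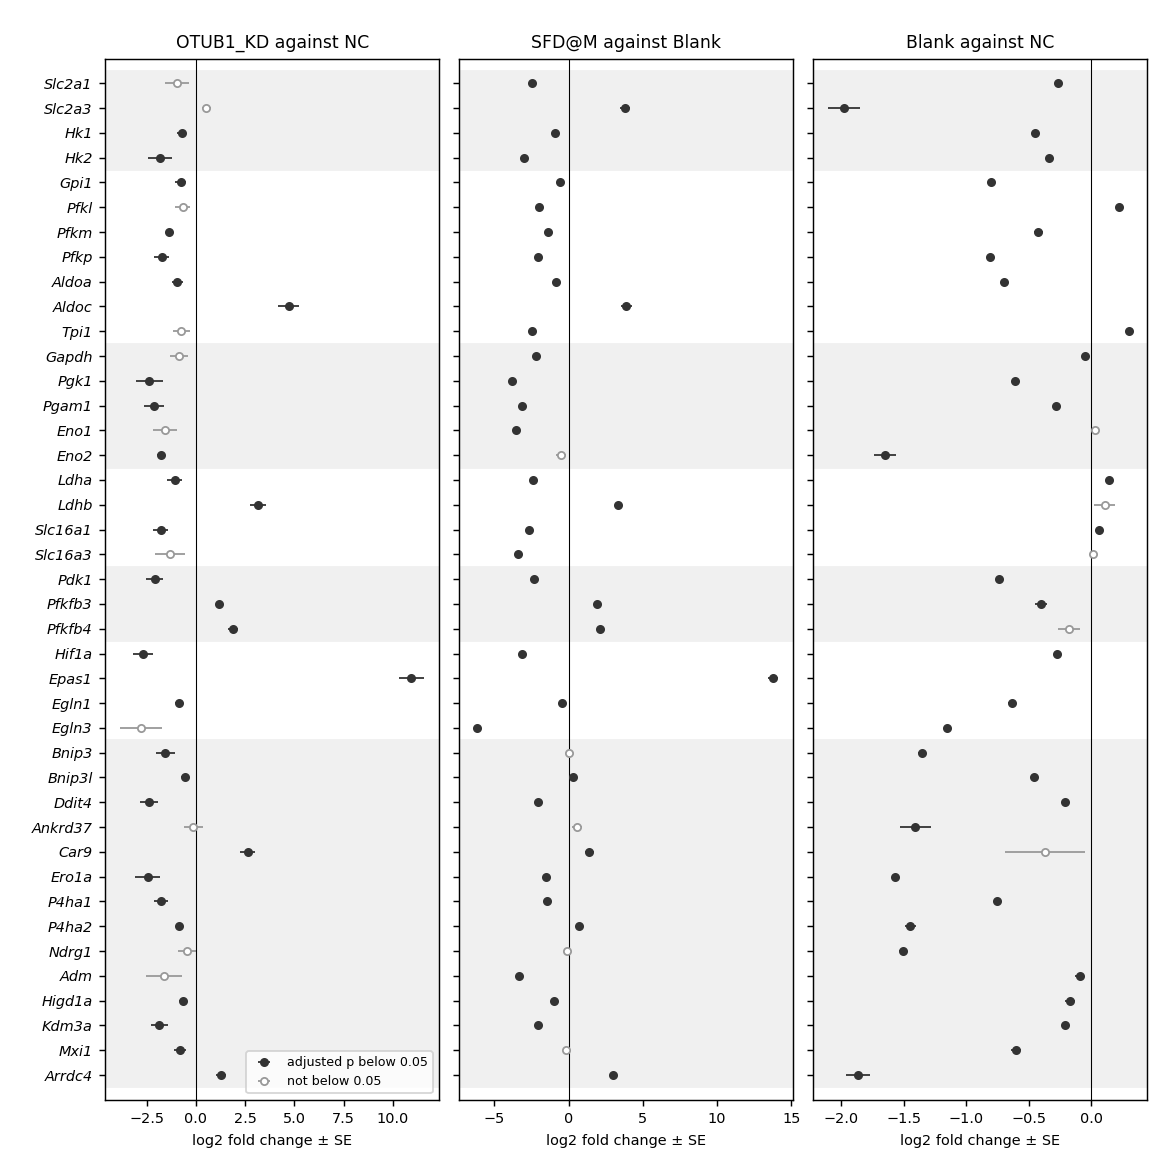
Log2 fold changes of the 41 genes with their standard errors from edgeR in 3 comparisons of 3 against 3 libraries; filled points have an adjusted p below 0.05, and the panels have different horizontal scales. Most points lie left of 0 in all panels, and Epas1 lies far to the right in the first and second panels.

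Glucose enters cells through facilitative transporters and is trapped by hexokinases. Slc2a1, the widely expressed transporter GLUT1, stood at 203 to 207 CPM in NC and at 204, 26.8 and 83.3 in OTUB1_KD replicates 1 to 3, so that 1 knockdown library lay within the NC range (log2 fold change -0.96 ± 0.62, adjusted p = 0.206; 0.0145 without OTUB1_KD replicate 1). In Blank it was at 162, 169 and 164 CPM and in SFD@M at 29.8, 29.1 and 32.8, a fall of 5.42-fold (adjusted p = 2.59e-08). Slc2a3, the high-affinity transporter GLUT3 known from neurons and blood cells, ran the other way: 3.07, 3.97 and 2.28 CPM in Blank against 62.1, 39.2 and 31.0 in SFD@M (3.82 ± 0.32, adjusted p = 1.43e-05), and 11.4 to 13.6 in NC against 18.9, 21.4 and 14.1 in OTUB1_KD (0.54 ± 0.22, adjusted p = 0.0615).

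Hk2, the inducible hexokinase of tumours and muscle, fell from 313 to 325 CPM in NC to 159, 22.8 and 84.4 in OTUB1_KD (-1.83 ± 0.60, adjusted p = 0.031), and from 242 to 246 in Blank to 29.3 to 31.4 in SFD@M, an 8.10-fold fall (adjusted p = 6.31e-09). Hk1, the constitutive hexokinase, fell less: from 197 to 118 CPM as group means in the first comparison (-0.72 ± 0.22, adjusted p = 0.025) and from 139 to 75.1 in the second (-0.89 ± 0.08, adjusted p = 1.91e-05). In length-corrected units Hk1 made up 45.6 to 46.4% of the summed TPM of both hexokinases in NC and 53.4%, 82.5% and 69.0% in OTUB1_KD. The same share was 43.5 to 45.0% in Blank and 75.7 to 78.5% in SFD@M, and the groups did not overlap in either comparison.

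The upper chain turns the trapped sugar phosphate into triose phosphates. In SFD@M against Blank 6 of its 7 enzymes were lower and Aldoc higher, and in OTUB1_KD against NC 4 were lower and Aldoc higher. Pfkp, the platelet-type phosphofructokinase, stood at 397, 411 and 422 CPM in NC and 184, 60.6 and 119 in OTUB1_KD (-1.74 ± 0.37, adjusted p = 0.00574), and at 219 to 230 in Blank and 52.5 to 55.2 in SFD@M (-2.06 ± 0.05, adjusted p = 2.16e-08). Pfkm, the muscle-type enzyme, varied little between the OTUB1_KD libraries, at 31.5, 37.7 and 39.3 CPM against 92.8 to 97.6 in NC (-1.37 ± 0.15, adjusted p = 2.62e-04).

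Aldoa, the main aldolase, stood at 1335 to 1390 CPM in NC and 885, 416 and 805 in OTUB1_KD (-0.94 ± 0.29, adjusted p = 0.0258), and at 789.8 to 829 in Blank and 409 to 470.3 in SFD@M (-0.88 ± 0.07, adjusted p = 7.69e-06). Aldoc, the brain-type aldolase, rose from 0.194, 0.862 and 0.556 CPM to 12.8, 10.2 and 19.5 (4.71 ± 0.52, adjusted p = 3.15e-04) and from 0.176 to 0.580 CPM to 5.09 to 7.15 (3.88 ± 0.36, adjusted p = 2.00e-05). In the control libraries it rested on 3 to 14 counts each, so its fold is loosely set, and it made up at most 1.24% of the aldolase TPM anywhere. Gpi1, the isomerase after hexokinase, had the smallest fall of the 4 lower enzymes in the first comparison (-0.78 ± 0.27) and of the 6 in the second (-0.57 ± 0.09).

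Tpi1, triose phosphate isomerase, was at 589 to 599.8 CPM in NC and 545, 145 and 365 in OTUB1_KD, all below NC but not past the test (-0.74 ± 0.43, adjusted p = 0.163; 0.0326 without OTUB1_KD replicate 1). In SFD@M it was at 137, 117 and 136 CPM against 695 to 715 in Blank (-2.44 ± 0.08, adjusted p = 6.63e-08). Pfkl, the liver-type phosphofructokinase, showed the same arrangement: 198 to 215 CPM in NC, 189, 54.7 and 143 in OTUB1_KD (adjusted p = 0.173), 229.7 to 239 in Blank and 51.1 to 66.4 in SFD@M (adjusted p = 4.19e-07).

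The lower chain makes ATP and pyruvate and held the deepest falls among the enzymes. Pgk1, phosphoglycerate kinase, stood at 3493, 3334 and 3409 CPM in NC and at 1227, 136 and 599 in OTUB1_KD (-2.37 ± 0.69, adjusted p = 0.0202; 0.0812 without OTUB1_KD replicate 3). In Blank it was at 2125, 2179 and 2186 CPM and in SFD@M at 149.9, 139.5 and 163, a 14.4-fold fall (adjusted p = 1.48e-08). The OTUB1_KD libraries thus ran from near the SFD@M level to 36% of the NC mean.

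Pgam1, phosphoglycerate mutase, fell from 1345 to 1364 CPM to 556, 113 and 256 (-2.12 ± 0.53, adjusted p = 0.0107) and from 1056 to 1103 to 112 to 138 (-3.16 ± 0.10, adjusted p = 5.48e-08). Eno1, the common enolase, was at 2154 to 2274 CPM in NC and 1268, 192 and 773 in OTUB1_KD, below NC in each library but at adjusted p = 0.0508, and at 2144 to 2237 in Blank against 166 to 198 in SFD@M (-3.58 ± 0.09, adjusted p = 2.45e-08). Gapdh, often used as a reference gene, was at 3015 to 3323 CPM in NC and 2294, 637 and 2302 in OTUB1_KD (adjusted p = 0.139), and fell 4.63-fold from 2930 to 2976 in Blank to 580.1 to 677 in SFD@M (adjusted p = 1.36e-07).

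Eno2, the neuronal enolase, was low throughout and followed another order. It stood at 20.7 to 21.9 CPM in NC, 7.32, 6.08 and 5.14 in OTUB1_KD (-1.77 ± 0.20, adjusted p = 3.18e-04), 5.97 to 7.13 in Blank and 2.57, 4.25 and 6.94 in SFD@M, where the groups overlapped (-0.53 ± 0.33, adjusted p = 0.159). Eno1, Gapdh, Pgk1 and Ldha have close copies elsewhere in the mouse genome, so reads that the authors' estimation split between copies add some uncertainty to their levels.

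The lactate dehydrogenase subunits moved in opposite directions. Ldha, the subunit of glycolytic tissue, fell from 1456, 1350 and 1380 CPM in NC to 898, 295 and 772 in OTUB1_KD (-1.08 ± 0.39, adjusted p = 0.0437) and from 1475 to 1500 in Blank to 259.6, 279 and 318 in SFD@M (-2.39 ± 0.09, adjusted p = 1.29e-07). Ldhb, the subunit of oxidative tissue such as heart, rose from 12.5 to 13.6 CPM in NC to 54.3, 129 and 156 in OTUB1_KD (3.15 ± 0.40, adjusted p = 5.53e-04) and from 13.3 to 13.9 in Blank to 134, 139 and 143 in SFD@M, a 10.2-fold rise (adjusted p = 6.31e-09). Of the summed TPM of both subunits, Ldha made up 98.7 to 98.8% in NC and Blank, 92.6%, 63.4% and 79.3% in OTUB1_KD and 59.2 to 62.8% in SFD@M.

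The lactate exporters fell as well. Slc16a1, which encodes the transporter MCT1, went from 424 to 453 CPM to 203, 78.4 and 92.5 (-1.79 ± 0.36, adjusted p = 0.00463) and from 429 to 446 to 88.0, 64.3 and 53.4 (-2.68 ± 0.17, adjusted p = 2.90e-06). Slc16a3, which encodes the hypoxia-inducible exporter MCT4, was at 228 to 235 CPM in NC and at 181, 13.9 and 81.4 in OTUB1_KD (adjusted p = 0.155; 0.0326 without OTUB1_KD replicate 1). It fell from 224 to 228 CPM in Blank to 20.1, 20.2 and 24.3 in SFD@M, 10.6-fold (adjusted p = 2.18e-08).

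Of the flux regulators, Pdk1, the kinase that keeps pyruvate out of mitochondria, fell, and both bifunctional enzymes that set the activator of phosphofructokinase rose. Pdk1 went from 322 to 326 CPM to 129.6, 41.7 and 53.6 (-2.09 ± 0.42, adjusted p = 0.00438) and from 184 to 191 to 49.3, 32.9 and 29.3 (-2.34 ± 0.18, adjusted p = 7.70e-06). Pfkfb3 stood at 43.4 to 45.1 CPM in NC, 86.1, 112 and 94.8 in OTUB1_KD (1.16 ± 0.15), 30.5 to 33.6 in Blank and 93.4, 144 and 130.2 in SFD@M (1.91 ± 0.16). Pfkfb4 stood at 12.4 to 14.4 CPM in NC, 33.2, 50.2 and 60.9 in OTUB1_KD (1.90 ± 0.25), 10.6 to 12.1 in Blank and 47.5 to 52.4 in SFD@M (2.13 ± 0.08). For both enzymes every library of the treated or knockdown group lay above its controls.

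Among the oxygen-sensing genes, Hif1a and Epas1, which encode the alpha subunits HIF-1alpha and HIF-2alpha, differed in opposite directions in both comparisons. The part of cell makeup in this was not tested. Hif1a was at 1185, 1178 and 1159 CPM in NC and 333, 84.1 and 126 in OTUB1_KD (-2.68 ± 0.51, adjusted p = 0.00339), and at 931 to 949 in Blank and 104, 106 and 114 in SFD@M (-3.13 ± 0.07, adjusted p = 1.33e-08). Epas1 was near 0 in all 6 control libraries, with 8, 13 and 12 counts in NC and 3, 7 and 1 in Blank, and stood at 618, 1641 and 1787 CPM in OTUB1_KD and 3637, 3092 and 2442 in SFD@M. Its adjusted p was 2.83e-05 and 2.51e-08; no fold is given because so few control counts set it. Hif1a made up at least 99.9% of the summed TPM of both genes in NC and Blank, 39.2%, 5.71% and 7.79% in OTUB1_KD and 3.28% to 5.23% in SFD@M.

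The prolyl hydroxylases that mark these subunits also differed from each other. Egln3, itself a strong hypoxia target, stood at 851, 867 and 887 CPM in NC and 319.8, 11.7 and 48.1 in OTUB1_KD, a 27.4-fold range within the group (-2.77 ± 1.06, adjusted p = 0.0521; 0.00165 without OTUB1_KD replicate 1). From 369.5 to 384 CPM in Blank it fell 73.0-fold to 6.75, 3.67 and 5.09 in SFD@M (adjusted p = 4.46e-08), the deepest fall among the 41 genes in that comparison. Egln1, the main oxygen sensor in most tissues, fell by much less, from 184 to 194 CPM to 132, 86.5 and 88.2 (-0.87 ± 0.20, adjusted p = 0.00754) and from 115 to 119 to 84.0 to 89.2 (-0.45 ± 0.05, adjusted p = 3.70e-05). Egln1 therefore made up 13.5 to 14.4% of the TPM of both in NC, 23.3%, 84.6% and 57.8% in OTUB1_KD, 18.6 to 18.8% in Blank and 90.2 to 94.7% in SFD@M.

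The 14 hypoxia targets split more than the glycolytic genes. In OTUB1_KD against NC 9 were lower and 2 higher, and in SFD@M against Blank 6 were lower, 4 higher and 4 not called. The 6 targets lower in SFD@M were lower in OTUB1_KD as well apart from Adm, which was not called there. Ero1a, the oxidase that forms disulfides in the endoplasmic reticulum, stood at 756 to 793 CPM in NC, 296, 63.0 and 61.0 in OTUB1_KD (-2.45 ± 0.64, adjusted p = 0.0131), 247 to 255 in Blank and 82.9 to 89.1 in SFD@M (-1.55 ± 0.05, adjusted p = 6.75e-08). Kdm3a, a histone demethylase, went from 355 to 365 CPM to 172, 58.5 and 64.7 (-1.85 ± 0.42) and from 296 to 309 to 64.8 to 79.7 (-2.07 ± 0.08). P4ha1, a collagen prolyl hydroxylase, went from 468 to 477 CPM to 212, 81.4 and 118 (-1.77 ± 0.34) and from 268 to 275 to 72.7, 116 and 113 (-1.44 ± 0.17).

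Ddit4, an inhibitor of mTORC1, went from 152 to 165 CPM to 53.6, 17.4 and 19.0 (-2.37 ± 0.44) and from 129 to 134 to 42.7, 28.0 and 23.1 (-2.08 ± 0.20). Higd1a, a mitochondrial inner-membrane protein, changed by -0.64 ± 0.20 and -0.97 ± 0.06. Adm, the vasodilator peptide adrenomedullin, was at 101 to 115 CPM in NC and 88.3, 7.71 and 8.27 in OTUB1_KD (adjusted p = 0.15; 2.12e-05 without OTUB1_KD replicate 1), and at 96.1 to 101 in Blank against 7.92 to 12.2 in SFD@M (-3.37 ± 0.14, adjusted p = 2.78e-07). In OTUB1_KD, replicate 1 alone lay near the NC level of Adm.

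The other 4 called targets were higher in SFD@M than in Blank. Arrdc4, an arrestin-domain protein known as a glucose-responsive gene, stood at 4.70, 5.84 and 5.03 CPM in Blank and 34.9, 43.8 and 45.0 in SFD@M, a 7.90-fold rise (adjusted p = 3.95e-07), and at 18.6 to 20.4 in NC and 31.7, 60.9 and 48.3 in OTUB1_KD (1.29 ± 0.26, adjusted p = 0.0042). P4ha2 rose from 33.8, 39.1 and 34.4 CPM to 57.2, 59.1 and 55.7 (0.68 ± 0.07, adjusted p = 4.88e-05) but fell from 96 to 104 in NC to 58.6, 46.4 and 58.2 in OTUB1_KD (-0.87 ± 0.14, adjusted p = 0.00175). Its levels overlapped in OTUB1_KD and SFD@M and lay far apart in NC and Blank. Bnip3l, a mitophagy receptor, went from 186 to 190.2 CPM to 253, 221 and 208 (0.26 ± 0.08, adjusted p = 0.0129) and, in the first experiment, from 266 to 273 to 207, 189 and 143 (-0.55 ± 0.19, adjusted p = 0.0337). Car9, a carbonic anhydrase, was low throughout, at 0.801 to 1.05 CPM in NC, 4.13 to 8.50 in OTUB1_KD, 0.527 to 0.870 in Blank and 1.60 to 2.27 in SFD@M, with log2 fold changes of 2.64 ± 0.39 and 1.4 ± 0.29.

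Bnip3, Ankrd37, Ndrg1 and Mxi1 were not called in SFD@M against Blank, and their groups overlapped. Bnip3, the mitophagy receptor related to Bnip3l, stood at 99.9, 107 and 112 CPM in Blank and 125, 87.0 and 119 in SFD@M (0.05 ± 0.13, adjusted p = 0.722), while in the first experiment it fell from 275 to 284 CPM to 179, 63.2 and 42.8 (-1.54 ± 0.50, adjusted p = 0.0306). Ndrg1 was at 208 to 225 CPM in NC, 279.6, 76.1 and 110.1 in OTUB1_KD, 70.6 to 76.1 in Blank and 61.0 to 75.8 in SFD@M. Mxi1, a partner of MAX that opposes MYC, was lower in OTUB1_KD (-0.81 ± 0.29, adjusted p = 0.0442), and Ankrd37, at 3.09 to 16.9 CPM in all groups, was called in neither.

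**Figure D3:**
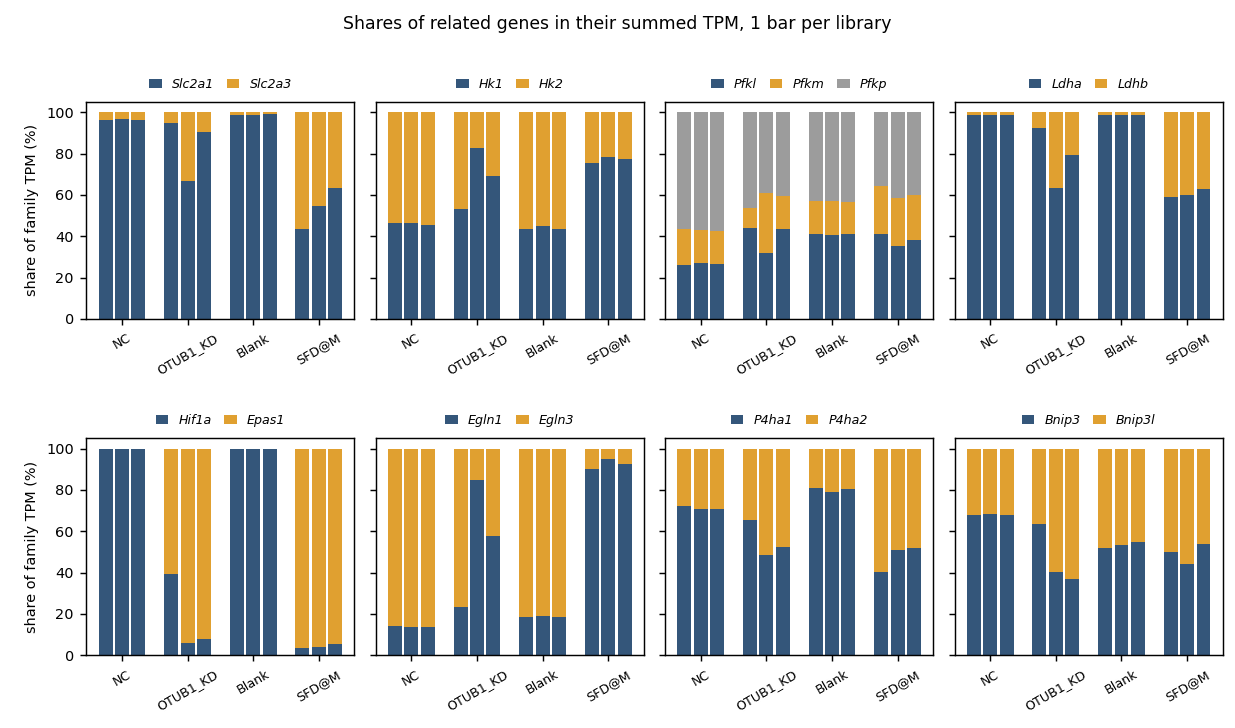
Share of each gene in the summed TPM of its family, in percent, with 1 bar per library and the 3 libraries of a group side by side. Hif1a fills nearly the whole bar in NC and Blank and at most 39.2% in OTUB1_KD and SFD@M, and the OTUB1_KD bars differ more among themselves than those of the other groups.

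Levels of different genes can be compared in TPM, which corrects for length. In NC the highest of the 41 genes were Gapdh (4178 TPM as the group mean), Pgk1 (3291), Eno1 (2216) and Aldoa (1654), and in SFD@M they were Epas1 (783), Gapdh (736), Aldoa (474) and Ldha (277). For shares within a family, the exact two-sided permutation test over 3 against 3 libraries cannot give a p below 0.1, so none of the 75 share comparisons can pass a threshold of 0.05.

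The 3 OTUB1_KD libraries differed from each other in the same order for most of the 41 genes. Replicate 1 was the highest of the 3 for 30 of the 41 genes and replicate 2 the lowest for 29, and both held for 25. Among the 26 genes lower in SFD@M than in Blank, a choice made in libraries other than these, both held for 21. The same order was not counted over all genes, so these counts show no trait particular to the 41 genes. As the median over those 26 genes, replicate 1 stood at 53.5% of the NC mean, replicate 3 at 31.9% and replicate 2 at 15.6%. The summed Y-linked genes stood at 34.9%, 6.86% and 0.166% of the NC mean in the same libraries, and summed dividing-cell markers at 1101, 424 and 239.5 CPM against 3465 to 3558 in NC. Summed airway markers ran the opposite way, at 12270, 19090 and 30140 CPM, and alveolar (10680, 26960 and 23050 CPM) and endothelial markers (1255, 3061 and 2975 CPM) were lowest in replicate 1. Leukocyte markers stood at 1590, 1853 and 1472 CPM in the same order of libraries.

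The median ratio of the highest to the lowest library over the 41 genes was 2.94 in OTUB1_KD, 1.23 in SFD@M and 1.05 in both NC and Blank. Egln3 (27.4-fold), Slc16a3 (13-fold), Adm (11.5-fold) and Pgk1 (9.05-fold) spread most widely within OTUB1_KD, and Pfkm (1.25-fold), P4ha2 (1.27-fold) and Pfkfb3 (1.3-fold) least. The part of the cell makeup of these libraries in that spread was not tested.

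**Figure D4:**
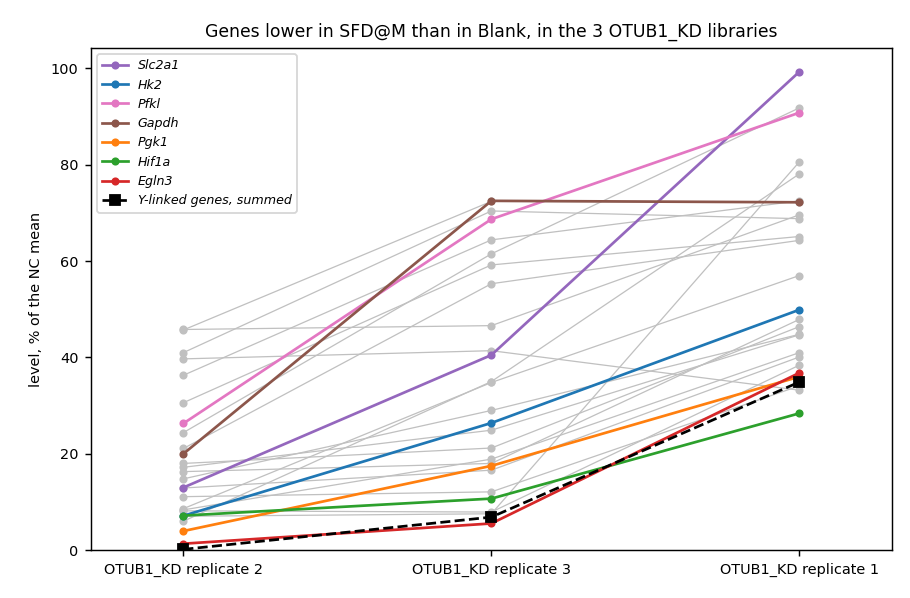
Levels of the 26 genes that were lower in SFD@M than in Blank, in the 3 OTUB1_KD libraries, as a percentage of the NC mean, with 7 genes in colour and the summed Y-linked genes as a dashed line; the libraries are placed by their Y-linked level. For 21 of the 26 genes replicate 2 is the lowest point and replicate 1 the highest. The same order was not counted over all genes.

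The controls of the 2 experiments differed too. In both, leukocyte and airway markers were near 0, and the hypoxia targets were nearly all lower in Blank, while genes of lactate production and transport were not. Of 39 genes tested (Aldoc and Epas1 fell below the filter on low counts), 30 were lower and 4 higher in Blank, beside 37.2% and 37.0% of all 12087 tested genes (74.3% in either direction). The median log2 fold change was -0.43 over these genes and -3e-04 over all. The 2 groups belong to separate experiments, so experiment and group cannot be told apart, and libraries within NC or Blank differed by 1.32 to 2.00 times the sampling variance, so small differences pass the test.

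The 4 higher genes differed little: Tpi1 by 0.30 ± 0.02, Pfkl by 0.22 ± 0.03, Ldha by 0.14 ± 0.02 and Slc16a1 by 0.06 ± 0.02 on the log2 scale. With all 12 libraries in 1 fit, which takes its spread from OTUB1_KD and SFD@M as well, 12 genes were lower and 0 higher by the same edgeR test, and all genes gave 1939 lower and 760 higher.

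Of the 14 hypoxia targets 13 were lower in Blank and 0 higher, with Car9 not called (adjusted p = 0.289). Ero1a stood at 766, 756 and 793 CPM in NC and 247, 255 and 249.9 in Blank, a 2.98-fold difference (log2 fold change -1.57 ± 0.02, adjusted p = 1.40e-63). Arrdc4 differed 3.64-fold, from 20.4, 19.6 and 18.6 CPM to 4.70, 5.84 and 5.03 (adjusted p = 2.57e-29). Ndrg1, a stress-responsive protein often used as a hypoxia marker, went from 208, 209 and 225 CPM to 71.5, 76.1 and 70.6 (-1.51 ± 0.03), and P4ha2 from 96, 102 and 104 to 33.8, 39.1 and 34.4 (-1.45 ± 0.04). Ankrd37 went from 8.81, 10.3 and 11 CPM to 3.77, 3.56 and 3.63 (-1.41 ± 0.12), and Bnip3 from 275, 283 and 284 to 99.9, 107 and 112 (-1.35 ± 0.03). For each of these 6 genes the 3 Blank libraries lay far below the 3 NC libraries. The other targets differed less, from -0.75 ± 0.02 for P4ha1 and -0.60 ± 0.04 for Mxi1 to -0.17 ± 0.04 for Higd1a and -0.09 ± 0.04 for Adm, whose call was lost without NC replicate 1 or 3 or Blank replicate 2 or 3 (adjusted p up to 0.154).

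Windows upstream of the transcription start are shown for 5 of these targets and for Slc16a3, a hypoxia-inducible gene that was not called between Blank and NC. They are the 250 bases before the start, from RefSeq on GRCm38.p6, written 5′ to 3′ on the strand of the gene, with every match to ACGTG or GCGTG (the core letters that hypoxia-inducible factors bind) on either strand in capitals; a palindrome CACGTG counts on both strands, and overlapping matches run together. The files' own build is GRCm39, so these positions belong to the RefSeq table.
Arrdc4 (chr7:68749239-68749488, minus strand): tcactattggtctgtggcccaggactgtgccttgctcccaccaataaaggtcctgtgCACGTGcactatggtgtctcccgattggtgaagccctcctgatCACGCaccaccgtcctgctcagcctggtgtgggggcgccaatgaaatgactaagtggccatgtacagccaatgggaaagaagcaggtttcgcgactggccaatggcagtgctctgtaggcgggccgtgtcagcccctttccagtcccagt
Ero1a (chr14:45318573-45318822, minus strand): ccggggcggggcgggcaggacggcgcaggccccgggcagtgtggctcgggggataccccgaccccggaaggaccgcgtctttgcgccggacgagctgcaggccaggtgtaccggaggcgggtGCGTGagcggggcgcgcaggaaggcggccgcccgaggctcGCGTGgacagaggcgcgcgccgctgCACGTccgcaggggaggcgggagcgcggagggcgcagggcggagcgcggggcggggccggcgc
P4ha2 (chr11:54100674-54100923, plus strand): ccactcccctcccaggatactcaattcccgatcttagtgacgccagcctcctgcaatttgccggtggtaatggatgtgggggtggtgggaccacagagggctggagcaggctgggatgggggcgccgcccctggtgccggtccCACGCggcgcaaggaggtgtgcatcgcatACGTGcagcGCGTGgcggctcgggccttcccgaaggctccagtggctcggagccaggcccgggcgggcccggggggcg
Ankrd37 (chr8:45999851-46000100, minus strand): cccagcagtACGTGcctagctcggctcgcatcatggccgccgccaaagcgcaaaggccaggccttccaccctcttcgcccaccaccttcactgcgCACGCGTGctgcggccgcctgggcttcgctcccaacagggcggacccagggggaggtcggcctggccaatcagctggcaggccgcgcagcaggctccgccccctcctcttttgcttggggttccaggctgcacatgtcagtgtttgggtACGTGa
Bnip3 (chr7:138909507-138909756, minus strand): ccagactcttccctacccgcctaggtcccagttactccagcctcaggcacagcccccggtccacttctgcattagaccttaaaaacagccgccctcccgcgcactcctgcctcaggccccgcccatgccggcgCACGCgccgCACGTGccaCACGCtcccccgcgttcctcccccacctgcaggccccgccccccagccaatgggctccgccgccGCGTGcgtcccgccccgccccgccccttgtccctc
Slc16a3 (chr11:120948817-120949066, plus strand): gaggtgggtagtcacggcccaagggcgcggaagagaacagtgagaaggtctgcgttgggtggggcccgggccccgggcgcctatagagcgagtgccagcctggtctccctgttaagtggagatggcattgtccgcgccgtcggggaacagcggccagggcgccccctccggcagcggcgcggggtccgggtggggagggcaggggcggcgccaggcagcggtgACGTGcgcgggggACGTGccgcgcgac
Arrdc4, Ero1a and P4ha2 held 3 matches each, Ankrd37 held 4, Bnip3 held 5 and Slc16a3 held 2. The number of matches did not separate genes that were lower in Blank from others: Ldha with up to 5 and Slc16a1 with 4 were not lower, and Egln3, which was, held 1. A window was listed for 37 of the 41 genes, and 34 of them (91.9%) held a match, beside 61.6% of 9731 genes tested in Blank against NC and 41.5% of all 27025 genes with a window. Of the genes lower in Blank 25 of 27 (92.6%) held a match, of those higher 3 of 4 and of those not called 5 of 5. Genes with several windows count when any window has a match. A match describes letters in a window and shows no binding.

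The oxygen-sensing genes were lower in Blank as well. Egln3 stood at 851 to 887 CPM in NC and 369.5 to 384 in Blank, 2.23-fold lower (adjusted p = 4.68e-55), Egln1 differed by -0.64 ± 0.03 and Hif1a by -0.27 ± 0.02. Epas1 was not tested, with at most 13 counts in any library of either group.

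The glycolytic genes were divided in Blank against NC. All 4 genes of glucose entry were lower, led by Slc2a3 with 13.6, 11.4 and 13.2 CPM in NC and 3.07, 3.97 and 2.28 in Blank (-1.98 ± 0.13, adjusted p = 3.89e-23), while Slc2a1, Hk1 and Hk2 differed by -0.27, -0.45 and -0.34. The Slc2a3 level in Blank rested on 53, 68 and 39 counts. The transcript of Slc2a3 that led in NC held 0.0% of the gene's TPM there, so this fold compares unlike transcripts. In the upper chain Gpi1, Pfkp, Aldoa and Pfkm were lower, by -0.80, -0.81, -0.70 and -0.42, each with an SE of at most 0.04. In the lower chain Eno2 was 3.14-fold lower (adjusted p = 2.11e-28) and Pgk1 1.52-fold lower (adjusted p = 6.39e-38), Pgam1 differed by -0.28 ± 0.02, and Gapdh by -0.05 ± 0.02, a call lost without any 1 library other than NC replicate 1 (adjusted p up to 0.449). Eno1 was at 2154, 2242 and 2274 CPM in NC and 2144, 2186 and 2237 in Blank (0.03 ± 0.02, adjusted p = 0.283).

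The lactate genes lay close together in both controls. Ldha stood at 1456, 1350 and 1380 CPM in NC and 1475, 1500 and 1492 in Blank, and Ldhb and Slc16a3 were not called (adjusted p = 0.24 and 0.657). The Slc16a1 call, with overlapping groups, was lost without NC replicate 2 or 3 or Blank replicate 1 or 3 (adjusted p up to 0.26). Pdk1 was 1.67-fold lower in Blank (adjusted p = 4.75e-40), Pfkfb3 differed by -0.40 ± 0.05 and Pfkfb4 by -0.18 ± 0.09 (adjusted p = 0.0646; 0.0353 to 0.319 with 1 library left out).

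Related genes shifted against each other here too. Pfkl made up 26.1 to 27.2% of the phosphofructokinase TPM in NC and 40.8 to 41.1% in Blank, and Pfkp 56.6 to 57.6% against 42.9 to 43.4%. P4ha1 made up 70.7 to 72.4% of the summed TPM of P4ha1 and P4ha2 in NC and 78.8 to 80.9% in Blank, and Bnip3 67.8 to 68.3% of that of Bnip3 and Bnip3l against 51.7 to 54.9%.

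**Figure D5:**
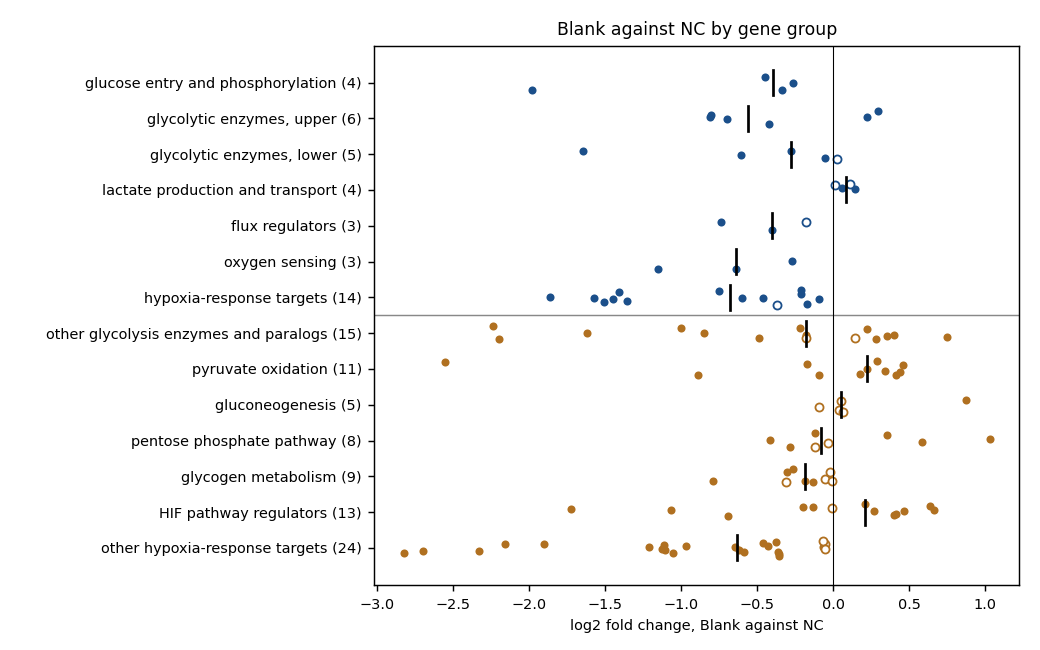
Log2 fold changes in Blank against NC by gene group, with 1 point per tested gene (the number in brackets), filled where the adjusted p is below 0.05, and the group's median as a bar; the 41 genes are above the grey line in blue and other lists below it in brown. Both hypoxia-target rows lie wholly left of 0, and the lactate genes lie between 0.01 and 0.14.

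Other genes of the same pathways, taken from 7 lists chosen by function, were examined beside the 41. Their counts stand beside the shares of all tested genes, which were 37.2% lower and 37.0% higher in Blank against NC, 38.7% and 49.5% in SFD@M against Blank, and 25.8% and 39.9% in OTUB1_KD against NC. Of 24 tested further hypoxia targets 21 were lower in Blank than in NC and 0 higher, with a median of -0.63. Txnip, an arrestin-domain relative of Arrdc4 that restrains glucose uptake, went from 2094 ± 61.5 CPM (SD, n = 3) in NC to 301, 312 and 323 in Blank (-2.70 ± 0.03, adjusted p = 1.35e-75), and Selenbp1, a selenium-binding methanethiol oxidase, from 162 ± 6.40 to 22.1, 20.8 and 23.1 (-2.83 ± 0.04, adjusted p = 3.86e-64). Neither is chiefly known as a target of hypoxia-inducible factors. In OTUB1_KD against NC the same list gave 12 lower and 12 higher of 29 tested, and in SFD@M against Blank 14 lower and 15 higher.

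Of 15 tested glycolysis enzymes and paralogs outside the 41, 8 were lower and 5 higher in Blank. Pkm, which makes pyruvate in the final step, was higher in Blank by 0.22 ± 0.02 and stood at 3470 ± 127 CPM (SD, n = 3) in NC, 2141, 358 and 1309 in OTUB1_KD, 3886 to 3940 in Blank and 394, 439 and 457 in SFD@M (-3.19 ± 0.08 in SFD@M against Blank, adjusted p = 3.06e-08). Bsg, the chaperone of the lactate exporters, was at 849 ± 6.23 in NC and 401 to 419 in Blank (-1.0 ± 0.02, adjusted p = 2.48e-51). In SFD@M against Blank this list gave 12 higher and 8 lower of 22 tested, and in OTUB1_KD against NC 11 higher and 6 lower of 22. Slc16a7, a pyruvate and lactate carrier, was at no more than 0.0585 CPM in Blank and at 42.3 to 53.0 in SFD@M.

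Pyruvate oxidation held both directions. Of 12 tested genes 7 were lower and 3 higher in SFD@M against Blank, and 3 lower and 2 higher in OTUB1_KD against NC. Pdk2, a kinase of the same enzyme as Pdk1, was at 0 in all Blank libraries and at 34.8 to 44.5 CPM in SFD@M and 19.9, 40.7 and 44.4 in OTUB1_KD. Pdk4, the starvation-induced kinase, rose from 0.0580 to 0.234 CPM in Blank to 24.5 to 37.1 in SFD@M (adjusted p = 2.86e-07). In Blank against NC 7 of 11 were higher, among them Mpc1 of the mitochondrial pyruvate carrier (0.44 ± 0.04), and 4 lower.

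The regulators of hypoxia-inducible factors gave 7 higher and 5 lower of 13 in Blank against NC, 5 higher and 6 lower in SFD@M against Blank, and 4 higher and 4 lower in OTUB1_KD against NC. Egln2, the third prolyl hydroxylase, stood at 14.2 ± 1.09 CPM (SD, n = 3) in NC, 37.2, 49.7 and 101 in OTUB1_KD (2.17 ± 0.37, adjusted p = 0.0023), 17 to 19.2 in Blank and 55 to 56.8 in SFD@M (1.61 ± 0.07, adjusted p = 2.34e-07). Cited2, which competes with HIF-1alpha for its coactivators, was at 284.5 ± 5.43 CPM in NC, 67.0, 48.1 and 49.2 in OTUB1_KD (-2.35 ± 0.18), 158 to 179 in Blank and 47.9 to 52.4 in SFD@M (-1.78 ± 0.07). Pentose phosphate genes gave 6 lower and 2 higher of 8 in SFD@M against Blank, glycogen genes 5 lower and 4 higher of 11 and gluconeogenic genes 3 lower and 2 higher of 6, beside 88.1% of all tested genes called in either direction. In OTUB1_KD against NC the same lists gave 1 lower and 2 higher of 8, 4 lower and 4 higher of 11, and 1 lower and 1 higher of 5.

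Pgd of the pentose phosphate pathway stood at 99.8 ± 1.39 CPM (SD, n = 3) in NC and 193 to 200 in Blank (1.03 ± 0.03, adjusted p = 1.14e-45), the opposite direction to Slc2a1, Hk1 and Hk2. The pentose phosphate list as a whole gave 3 higher and 3 lower of 8 in Blank against NC, the glycogen list 0 higher and 5 lower of 9 and the gluconeogenic list 1 higher and 0 lower of 5.

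The changes of the 2 experiments were compared by an interaction test over all 12 libraries, which asks whether SFD@M minus Blank differs from OTUB1_KD minus NC. It called 9 of the 41 genes, 7 with a higher change in the SFD@M experiment and 2 with a lower one, beside 12.4% and 10.8% of all 15304 tested genes (23.1% in either direction). For P4ha2 the difference was 1.57 ± 0.16 (adjusted p = 2.67e-04) and for Arrdc4 1.73 ± 0.30 (adjusted p = 0.00382), and both genes had differed between the controls. For Pgk1, Hif1a and Ldha no difference was called (-1.46 ± 0.74, -0.43 ± 0.53 and -1.29 ± 0.43, adjusted p = 0.177, 0.599 and 0.0517), which does not show that they changed alike.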

How the data were processed

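The labels' protocols describe sequencing of polyadenylated RNA from 12 samples, which were grouped by their titles. The authors deposited 1 table of 70659 transcripts with expected counts (estimated read counts that need not be whole) and TPM, per the file headers; of 48 columns of per-sample values, 24 (FPKM and normalized counts) were not used here. The build GRCm39 and the tools RSEM 1.3.1, Bowtie2 and DESeq2 1.4.5 are listed in the submitters' processing notes with no role for each. Strand handling is not given in the sources used here, and reads of antisense or overlapping genes cannot be told apart. The deposited TPM are relative to each library's total, and 1 transcript, that of Scgb1a1, took up to 23.8% of it, so other TPM in that library are lower for that reason alone; shares within a family are not touched by this.

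Expected counts were summed per Entrez gene and rounded to whole numbers. Of 19212 genes 19155 had a symbol in a RefSeq table of GRCm38.p6, and the 57 others took no more than 0.342% of counts in any library. Each comparison was fitted on its 6 libraries with edgeR 4.0.16 in R 4.3.3 (filterByExpr, TMM factors, robust glmQLFit and glmQLFTest), and the interaction on all 12, and a call means a p below 0.05 after Benjamini-Hochberg adjustment over all tested genes. Fold changes come from these fits; printed levels are CPM with TMM factors over all 12 libraries, so their ratios differ slightly from the fold changes. Errors of log2 fold changes are standard errors. The fits were first run on simulated counts. There each gene had the same spread in every group, while the OTUB1_KD libraries varied far more than those of NC. That run therefore does not test the fits under unequal spread.

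The 41 genes and all other lists were chosen with earlier results of these data known. All 41 genes were to be named whatever their p, with Otub1, the first gene of each marker list, and of each other list up to 2 called genes in each direction per comparison by smallest p. Alternatives were DESeq2 1.42.0 and its size factors, total counts, no filter, limma 3.58.1 on log2(TPM + 1), the replicate number as a block, 1 fit of all libraries, and leaving out each library.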

Additional observations from a re-analysis of the deposited data

Results flagged for a closer look

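By the interaction test of edgeR, the change in SFD@M against Blank differed from that in OTUB1_KD against NC for 9 of the 41 genes. The same test called 23.1% of all 15304 tested genes in either direction, so the number of calls does not set the 41 genes apart. The difference in log2 fold change was 3.31 ± 0.39 for Slc2a3 (adjusted p = 6.03e-04), 1.73 ± 0.30 for Arrdc4 (0.00382), 1.57 ± 0.16 for P4ha2 (2.67e-04) and 0.85 ± 0.20 for Bnip3l (0.0125), and these 4 passed with any single library left out. It was 2.83 ± 0.81 for Epas1 (0.0297), which rests on 1 to 13 counts in each control library. It was 1.27 ± 0.40 for Eno2 (0.0429), 0.78 ± 0.22 for Pfkfb3 (0.0255), -1.68 ± 0.48 for Tpi1 (0.0289) and -1.995 ± 0.65 for Eno1 (0.0478). Those 5 lost the call without at least 6 of the 12 libraries taken 1 at a time, with adjusted p up to 0.103. Slc2a3, Arrdc4, P4ha2 and Bnip3l were also lower in Blank than in NC, and whether the baseline or the response sets their difference cannot be told apart in this design. For Slc2a3 the transcript that led in NC held 0.0% of the gene's TPM in Blank, so its difference also compares unlike transcripts.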

How the results depend on the processing

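The medians of the 41 genes in OTUB1_KD against NC, SFD@M against Blank and Blank against NC were below 0 under every alternative run. In Blank against NC, 1 fit of all 12 libraries gave 12 lower and 0 higher in place of 30 and 4 (all genes: 1939 lower and 760 higher in place of 4500 and 4477), and turned Eno1 to -0.0227 and Slc16a3 to -0.0369. In the interaction, 2 lower calls became 4 with DESeq2 size factors, total counts or no filter and 6 with DESeq2. On log2(TPM + 1) all genes gave 1497 higher and 2210 lower in the interaction in place of 1891 and 1646, and in SFD@M against Blank Bnip3 turned to -0.235 and Bnip3l to -0.00939. With 1 library left out, where a lone pair is assumed to vary like the other groups, lower and higher calls ran from 14 to 31 and 7 to 8 in OTUB1_KD against NC, 26 to 28 and 9 to 12 in SFD@M against Blank, 29 to 30 and 3 to 4 in Blank against NC, and 0 to 15 and 4 to 16 in the interaction, whose median ran from -0.365 to 0.278 (highest without OTUB1_KD replicate 1). Ankrd37 in OTUB1_KD against NC ran from -0.951 to 0.156, above 0 without OTUB1_KD replicate 2 or 3 (0.122), and Bnip3 in SFD@M against Blank from -0.0374 to 0.209, below 0 without SFD@M replicate 1 or 3 (-0.000164). Differences in shares changed sign too, in percentage points. In OTUB1_KD against NC they ran from -3.43 to 6.28 for Pfkm, -0.586 to 0.204 for Eno1 and -12.1 to 6.64 for Slc16a1 (-1.65 in CPM), each changing sign without OTUB1_KD replicate 2, and Slc16a1 also without NC replicate 3 (-0.187). In Blank against NC they ran from -0.646 to 0.162 for Pfkm, -0.0116 to 0.00144 for Aldoa (0.0013 without Blank replicate 1) and -0.0303 to 0.046 for Ldha. Apart from fewer samples or genes in a fit, the cause of these changes was not tested.

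Samples share replicate numbers across groups, and same-numbered samples correlated in their deviations by -0.0485 to 0.078. Own numbers correlated best for 2, 2 and 1 of 3 libraries. Libraries within NC or Blank differed by only 1.32 to 2.0 times the sampling variance, so this check could hardly detect pairing and does not exclude it. The replicate block gave 23 lower and 7 higher in OTUB1_KD against NC, 26 and 10 in SFD@M against Blank, 29 and 4 in Blank against NC and 1 and 6 in the interaction. Few counts limit Epas1, Aldoc and Car9 in NC and Blank, with 1 to 17 per library.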

Other observations

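For some of these genes the share of the leading transcript differed between groups, as did the level. The groups also differ in cell makeup, and its part in these shares was not tested. The transcript of Hk2 that led in NC held 63.4 to 74.7% of the gene's TPM in NC and 62.7 to 71.9% in Blank, and 20.3 to 42.6% in OTUB1_KD and 26.3 to 54.2% in SFD@M. For Pdk1 the transcript that led in NC held 51.3 to 55.3% in NC, 53.4 to 55.7% in Blank, 16.6 to 22.4% in SFD@M and 0.0 to 43.7% in OTUB1_KD. For Aldoa the leading transcript held 97.0 to 97.1% in NC, 95.6 to 96.7% in Blank, 70.2 to 86.1% in OTUB1_KD and 73.0 to 75.7% in SFD@M. For Slc2a3 the transcript that led in NC held 89.6 to 95.6% in NC, 0.0% in Blank, 80.9 to 91.4% in OTUB1_KD and 91.6 to 98.4% in SFD@M. The leading transcript of Higd1a held 86.8 to 91.7% in all 12 libraries. These genes were picked after their values were seen, and shares of transcripts are the authors' estimates, with no test here.

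Erythroid markers (6 genes) separated the groups that share lung markers: they summed to 6589 to 13420 CPM in OTUB1_KD and to 9.60 to 214 in SFD@M. Bnip3l, which is known for clearing mitochondria from maturing red cells, was at 143 to 207 CPM in the former and 208 to 253 in the latter. Bpgm, from the list of other glycolysis enzymes and paralogs, ran the other way. It stood at 53.2, 66.5 and 72.0 CPM in OTUB1_KD and 22.8 to 24.7 in SFD@M. The interaction test of edgeR gave -1.19 ± 0.17 for Bpgm (adjusted p = 0.00147). Its level and the erythroid sum rose in the same order of the OTUB1_KD libraries. The part of red cells in the levels of Bnip3l and Bpgm was not tested.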
